A study of Mus musculus with 9 samples.

Results

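Genes that carry glucose into cells and break it down to lactate were followed across the cell types of the mouse heart. The 10 genes, of 23747 in the deposited tables, were chosen by name: the carriers Slc2a1 and Slc2a4, the hexokinases Hk1 and Hk2, the phosphofructokinase Pfkp, and Aldoa, Pgk1, Eno1, Pkm and Ldha of lower glycolysis. All 10 were listed in each of the 9 tables, and all 10 passed the filter on low values in each of 4 main cell types. Single-nucleus RNA sequencing (sNuc-seq) reads the RNA of isolated nuclei, and each captured transcript carries a unique molecular identifier (UMI). The hearts came from 8-week-old C57BL/6 mice, 3 per group, and the tissue was taken from below the site of ligation. Sham mice were given vehicle by gavage for 7 days and were operated on without ligation. I/R mice were given vehicle for 7 days, after which the left anterior descending coronary artery was tied for 30 min and reopened for 24 h. SBP mice were given Shexiang Baoxin Pill (MUSKARDIA in the labels), a traditional Chinese medicine, for 7 days and then went through ischemia and reperfusion as the I/R mice did.

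Glucose enters a cell through carriers of the Slc2a family, is trapped by hexokinase as glucose 6-phosphate, is committed to glycolysis by phosphofructokinase, and leaves the pathway as pyruvate or, through lactate dehydrogenase, as lactate. Adult heart muscle burns mainly fatty acids, and its main glucose carrier is Slc2a4 (GLUT4), which insulin moves from internal vesicles to the cell surface, whereas Slc2a1 (GLUT1) sits at the surface of most cells. Macrophages and fibroblasts that are activated in an injured tissue are known to turn to glycolysis, and many genes of the pathway are known targets of the hypoxia factor Hif1a.

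The tables held 49171 nuclei, 4576 to 6418 per mouse, with 10329520 to 18205985 UMIs per mouse and a median of 1540 to 2031 UMIs per nucleus. The study counts more nuclei after its quality control than these tables hold, and the difference was not settled. Of 48881 distinct barcodes, 290 occurred in more than 1 library. The 10 genes and the lists of related genes were left out when nuclei were clustered. From marker genes, 10539 nuclei were cardiomyocyte-like, 13453 endothelial, 14307 fibroblast and 9218 myeloid, and these names stand below for nuclei that resemble the type. The summed level of 8 cardiomyocyte markers was 29951 to 56140 CPM in cardiomyocytes and 1533 to 9748 in the other 3 types, where CPM is the UMI count of a gene as a share of all UMIs of that cell type in that mouse, brought to a common total with TMM scaling factors. I/R replicate 1 stood apart in cardiomyocytes: 79.9% of its nuclei lay in a cluster led by Mhrt, which held 90.2% to 96.6% of the sham cardiomyocytes, against 0.106% and 6.99% in the other I/R mice and 1.90% to 23.4% in SBP mice. The remaining cardiomyocytes lay in a cluster led by Myh7 and Ankrd1. Changes of single genes between I/R and other cardiomyocytes are given with and without this mouse.

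Promoters of some of the 10 genes, each with the motif described here, are shown first. The capitals mark ACGTG, a form of the core of the hypoxia response element, or CACGT, which is the same motif on the other strand. Both overlap within CACGTG, the E-box. The motif was searched from 250 bases before to 50 bases after each start in RefSeq (GRCm38.p6), and 19.62% of 32851 such windows of 300 bases held it on either strand. Of the 10 genes, 9 had 16 windows in that table, 8 windows held the motif, and 7 genes had it in at least 1 window. With 1 window per gene, the first in the table, 4 of the 9 had it. The count of 7 is not comparable with the share of all windows, since a gene with several windows has more chances of a match. The motif was in no window of Pfkp or Eno1, which were also called higher in myeloid cells, and not in the first window of Pkm or the second of Ldha. GCGTG, another form of the hypoxia core, was not searched, so windows without a match may still hold that core. Of the genes with a match, Slc2a1, Pgk1 and Pkm were called higher in myeloid cells, Slc2a1 with the limit given below. Hk2 rose in fibroblasts, and Ldha passed no test between groups and had the most matches, 5 with 2 E-boxes. For these genes the 250 bases before the start are shown, read 5′ to 3′ on the strand of the gene. They lie at chr4:119108495-119108744 (Slc2a1, plus strand), chrX:106186850-106187099 (Pgk1, plus), chr9:59656977-59657226 (Pkm, plus, the second of its 2 starts), chr6:82774455-82774704 (Hk2, minus) and chr7:46845554-46845803 (Ldha, plus, the first of its 2 starts).
Slc2a1: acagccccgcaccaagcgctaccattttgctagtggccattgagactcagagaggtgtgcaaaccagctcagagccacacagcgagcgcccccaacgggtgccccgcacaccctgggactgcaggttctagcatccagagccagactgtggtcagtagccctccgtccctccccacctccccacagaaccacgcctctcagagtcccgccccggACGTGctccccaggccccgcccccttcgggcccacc
Pgk1: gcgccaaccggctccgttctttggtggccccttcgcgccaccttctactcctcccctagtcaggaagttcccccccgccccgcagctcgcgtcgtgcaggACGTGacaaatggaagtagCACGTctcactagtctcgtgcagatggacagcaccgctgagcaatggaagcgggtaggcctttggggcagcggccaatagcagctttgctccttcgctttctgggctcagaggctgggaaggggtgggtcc
Pkm: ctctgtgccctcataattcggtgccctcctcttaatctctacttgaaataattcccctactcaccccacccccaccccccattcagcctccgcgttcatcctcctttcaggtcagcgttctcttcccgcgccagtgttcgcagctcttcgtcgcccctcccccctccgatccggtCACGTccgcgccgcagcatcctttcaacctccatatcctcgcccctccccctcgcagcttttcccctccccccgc
Hk2: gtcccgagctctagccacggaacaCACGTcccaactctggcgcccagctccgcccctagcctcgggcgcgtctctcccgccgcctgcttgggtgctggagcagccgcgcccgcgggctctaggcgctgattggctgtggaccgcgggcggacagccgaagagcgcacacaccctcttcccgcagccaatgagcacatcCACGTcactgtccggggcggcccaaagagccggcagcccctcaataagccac
Ldha: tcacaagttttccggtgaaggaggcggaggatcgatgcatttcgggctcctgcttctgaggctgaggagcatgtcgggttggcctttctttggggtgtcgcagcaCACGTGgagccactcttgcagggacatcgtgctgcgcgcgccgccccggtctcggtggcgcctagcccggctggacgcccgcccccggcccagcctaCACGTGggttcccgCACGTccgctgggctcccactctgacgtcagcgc
A match is a description of the letters and not a site of binding, and binding was not measured here.

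The first question was where in the heart each gene was expressed. The plot of levels by cell type shows all mice. Levels in cardiomyocytes were compared with those in the other 3 types of the same mouse by a two-sided exact sign-flip permutation test over 9 mice, whose smallest possible p is 0.00391, and p-values were adjusted over all genes of a pair. By this test 81.1% of 11342 genes differed between cardiomyocytes and endothelial cells, 81.4% of 11790 between cardiomyocytes and fibroblasts and 81.9% of 10132 between cardiomyocytes and myeloid cells. Most of these were lower in cardiomyocytes, with a median difference over all genes of -0.60, -0.60 and -0.68 on the log2 scale. In each of the 3 pairs 7 of the 10 genes differed, which is below the share of all genes.

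**Figure D1:**
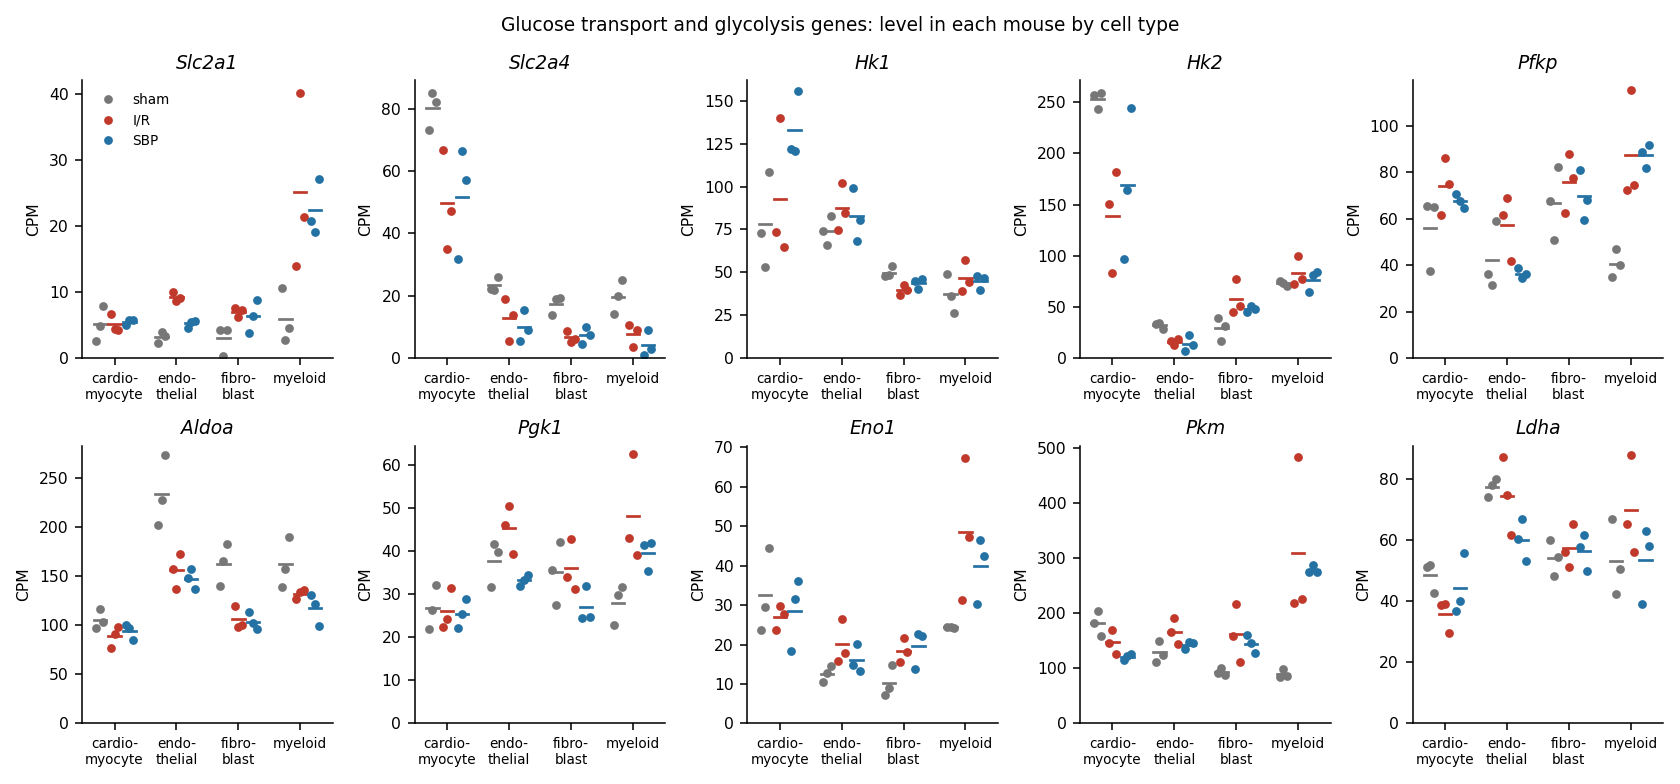
Level of each of the 10 genes, in CPM (y axis from 0), by cell type (x axis) in sham (grey), I/R (red) and SBP (blue) mice; points are mice and bars are group means, n = 3. Slc2a4 was highest in cardiomyocytes, at 73.2 to 85.0 CPM in sham mice, and Pkm in myeloid cells of I/R and SBP mice lay at 219 CPM or above.

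Slc2a4 (chr11:69942539-69948188 in the GENCODE annotation of GRCm38, minus strand) was higher in cardiomyocytes than in the other types. Its level there was 73.2, 85.0 and 82.3 CPM in the sham mice, against 21.8 to 26.1 in endothelial cells as well as 13.8 to 19.3 in fibroblasts and 14.0 to 24.9 in myeloid cells. Every one of the 9 mice had more in cardiomyocytes, by 4.03-fold over endothelial cells, 5.71-fold over fibroblasts and 6.71-fold over myeloid cells (log2 difference 2.01 ± 0.36, 2.51 ± 0.29 and 2.75 ± 0.83, SD, n = 9; exact p = 0.00391 each, adjusted p = 0.00564, 0.00561 and 0.00575). Cardiomyocyte markers were not at 0 in the other types, and their part in the level of Slc2a4 there was not tested. Per 1000 UMIs of Ttn, the giant sarcomere protein, Slc2a4 had 2.10 to 5.37 UMIs in cardiomyocytes, 1.19 to 18.4 in myeloid cells, 5.91 to 18.6 in endothelial cells and 6.20 to 21.5 in fibroblasts.

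Hk2, the hexokinase of muscle and fat (chr6:82725025-82774454, minus strand), had the widest gap of the 10 genes between cardiomyocytes and endothelial cells. Sham cardiomyocytes had 257, 244 and 259 CPM, and sham endothelial cells had 33.4, 34.2 and 28.1. Over all 9 mice the level in cardiomyocytes was 8.95-fold that of endothelial cells (log2 difference 3.16 ± 0.49), 4.07-fold that of fibroblasts (2.03 ± 1.08) and 2.24-fold that of myeloid cells (1.17 ± 0.68, SD, n = 9). The first 2 differences had the sign in 9 of 9 mice and the third in 8 of 9 (exact p = 0.00391, 0.00391 and 0.00781; adjusted p = 0.00564, 0.00561 and 0.0105). In fibroblasts the gap was 3.16 on the log2 scale in sham mice alone. Hk1 (chr10:62268855-62379908, minus strand), the hexokinase of most tissues, was also higher in cardiomyocytes than in fibroblasts, 2.13-fold, and than in myeloid cells, 2.24-fold, in 9 of 9 mice (exact p = 0.00391; adjusted p = 0.00561 and 0.00575), but not than in endothelial cells (log2 difference 0.24 ± 0.46; exact p = 0.168).

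Eno1, the widely expressed enolase (chr4:150236721-150248879, plus strand), was 1.77-fold and 1.83-fold higher in cardiomyocytes than in endothelial cells and fibroblasts, in 9 of 9 mice (exact p = 0.00391), and its difference from myeloid cells was -0.30 ± 0.60 on the log2 scale (exact p = 0.168). Pfkp, the platelet form of phosphofructokinase (chr13:6579768-6648777, minus strand), was 1.47-fold higher than in endothelial cells in 9 of 9 mice (exact p = 0.00391). Its log2 differences from fibroblasts and myeloid cells were -0.11 ± 0.18 and -0.05 ± 0.50 (exact p = 0.121 and 0.766).

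Aldoa, Pgk1 and Ldha took a smaller share of the RNA in cardiomyocytes than in the other types, as most genes did. The median difference over all genes was -0.60, -0.60 and -0.68 on the log2 scale. Only Aldoa and Ldha against endothelial cells, at -0.86 and -0.72, lay beyond that median. Aldoa, an aldolase (chr7:126795234-126800751, minus strand), was 1.82-fold higher in endothelial cells, 1.26-fold in fibroblasts and 1.41-fold in myeloid cells, in 9 of 9 mice each (exact p = 0.00391). Pgk1, phosphoglycerate kinase (chrX:106187100-106203699, plus strand), was 1.47-fold, 1.23-fold and 1.43-fold higher in endothelial cells, fibroblasts and myeloid cells (exact p = 0.00391, 0.0391 and 0.00781). Ldha, the lactate dehydrogenase subunit of muscle (chr7:46841475-46855627, plus strand), was 1.64-fold, 1.32-fold and 1.35-fold higher (exact p = 0.00781, 0.0195 and 0.0234). In sham mice alone both genes overlapped between cardiomyocytes and myeloid cells. Pgk1 was at 21.9, 26.3 and 32.2 CPM in the first and at 22.8, 29.8 and 31.7 in the second. Ldha was at 50.9, 51.7 and 42.7 CPM in the first and at 66.6, 42.4 and 50.5 in the second. Pgk1 against fibroblasts was lost without sham replicate 1 or 3, I/R replicate 1 or 2 or SBP replicate 1 or 2 (adjusted p = 0.057 to 0.092), and Ldha against myeloid cells without sham replicate 1, any I/R mouse or SBP replicate 2 (0.057 to 0.065), in the same exact test. These directions rest on CPM: counted as UMIs per nucleus, the same 3 genes were higher in cardiomyocytes than in each of the other types, by 0.90 to 1.19 on the log2 scale.

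Slc2a1 (chr4:119108711-119137983, plus strand) was sparse, with 323 UMIs over all cardiomyocytes, 129 over endothelial cells, 187 over fibroblasts and 364 over myeloid cells. It was 2.48-fold lower in cardiomyocytes than in myeloid cells (log2 difference -1.31 ± 1.24, lower in 7 of 9 mice, exact p = 0.0195, adjusted p = 0.0245), and per nucleus this difference was 0.078, with the sign turned. That pools sham mice with mice after ischemia. In sham mice alone Slc2a1 was at 2.62, 4.88 and 7.91 CPM in cardiomyocytes and at 10.5, 2.71 and 4.53 in myeloid cells, and overlapped. Pkm, pyruvate kinase of muscle and many other tissues (chr9:59656368-59679375, plus strand), did not pass the test in any pair, with differences of 0.02 ± 0.36 from endothelial cells, 0.20 ± 0.59 from fibroblasts and -0.39 ± 1.08 from myeloid cells (exact p = 0.859, 0.328 and 0.297). In sham mice alone the difference from myeloid cells was 1.00, and 3 mice cannot pass this test.

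**Figure D2:**
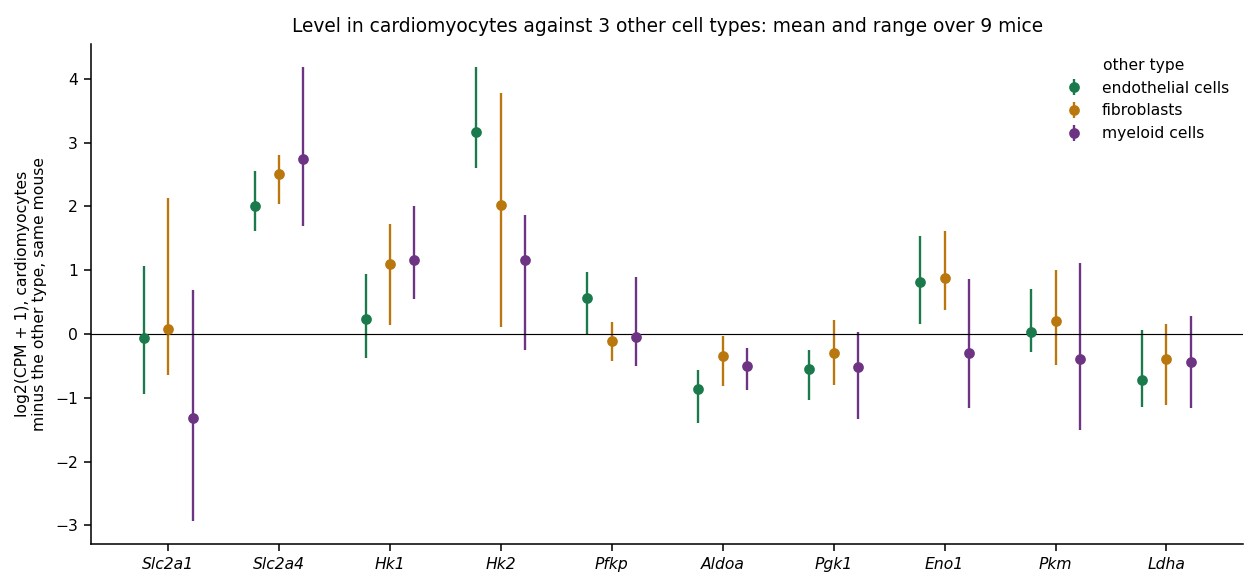
Difference of log2(CPM + 1) between cardiomyocytes and endothelial cells, fibroblasts or myeloid cells of the same mouse (y axis) for the 10 genes (x axis); points are means and bars the range over 9 mice. Slc2a4 lay above 0 in every mouse and pair, from 1.62 to 4.19, and the range of Pkm spans 0 in all 3 pairs.

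The second question was what ischemia and reperfusion changed. A gene was called when its adjusted p over all genes was at most 0.05 and its log2 fold change over 0.25 in size, by limma on log2(CPM + 1) with all 9 mice of a type. In cardiomyocytes 0.84% of 12856 genes were called, and 0 of the 10 genes were. The median log2 fold change of the 10 was -0.24, against -0.03 over all genes, and 7 had a negative value. The 7 fibroblast markers in cardiomyocytes summed to 264 to 274 CPM in sham and 362 to 478 in I/R mice. The 14 myeloid markers summed to 93.2 to 131 and 171 to 329, and the part of either in the values below was not tested. The cluster that held most cardiomyocytes was the Mhrt-led cluster in sham mice and I/R replicate 1 and the Myh7 and Ankrd1-led cluster in the other I/R mice and in SBP mice.

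The levels of 3 of the 10 genes did not overlap between sham and I/R cardiomyocytes, all lower in I/R, where 16.2% of all genes did not overlap. Slc2a4 was at 73.2, 85.0 and 82.3 CPM in sham mice, at 66.9, 34.9 and 47.4 in I/R mice and at 31.8, 66.6 and 57.1 in SBP mice. Every I/R and SBP value lay under every sham value, with I/R replicate 1 the nearest to sham. The log2 fold change was -0.72 ± 0.28 (SE; adjusted p = 0.28), and -0.96 without I/R replicate 1 (adjusted p = 0.068).

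Hk2 in cardiomyocytes was at 257, 244 and 259 CPM in sham mice, at 150, 83.4 and 182 in I/R mice and at 97.1, 164 and 245 in SBP mice. Sham mice lay close together, I/R mice were all lower, and SBP replicate 3 reached the sham range. The log2 fold change of I/R against sham was -0.94 ± 0.34 (SE; adjusted p = 0.25), and -1.03 without I/R replicate 1 (adjusted p = 0.14). Ldha, at 42.7 to 51.7 CPM in sham mice and 29.6 to 38.9 in I/R mice, gave -0.43 ± 0.19 (adjusted p = 0.34), and -0.49 without I/R replicate 1 (adjusted p = 0.20). The other 7 genes overlapped, with log2 fold changes from -0.30 (Pkm) to 0.43 (Pfkp), and from -0.30 (Pkm) to 0.55 (Pfkp) without I/R replicate 1. Without I/R replicate 1, 797 genes were called in place of 108, and still 0 of these 10. Within the Myh7 and Ankrd1-led cluster alone 0.466% of genes and 0 of the 10 were called, with Slc2a4 at -0.98 (adjusted p = 0.13), Aldoa at -0.89 (0.083) and Hk2 at -0.38 (0.63). Within the Mhrt-led cluster, with 2 I/R mice, 0.0245% of genes and 0 of the 10 were called.

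In myeloid cells 18.3% of 10754 genes were called, and 5 of the 10 genes rose while 0 fell. These 5 include Slc2a1, which entered the test through the mice with ischemia, as given below. The groups did not overlap for 7 of the 10, against 35.4% of all genes. The median log2 fold change was 0.56, against 0.09 over all genes. The 7 fibroblast markers in myeloid nuclei summed to 593 to 851 CPM in sham and 905 to 1282 in I/R mice, and their part in these values was not tested. Myeloid nuclei of sham mice lay almost wholly in a cluster led by Cd163, a marker of resident macrophages (98.2% to 98.4% of nuclei), whereas a cluster led by Gpnmb and Arg1, genes of phagocytes in injured tissue, held 80.2%, 67.1% and 46.7% of the nuclei of the I/R mice and 46.3% to 72.2% of those of SBP mice.

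Pkm had the smallest adjusted p of the 10 genes. Pyruvate kinase makes the last step to pyruvate, and its level in myeloid cells was 84.2, 99.3 and 86.0 CPM in sham mice, 219, 485 and 226 in I/R mice and 275, 288 and 276 in SBP mice. The lowest mouse with ischemia, at 219, lay above the highest sham mouse, at 99.3. The log2 fold change of I/R against sham was 1.68 ± 0.25 (SE, n = 3 and 3; adjusted p = 0.00114). Pfkp was at 35.1, 46.9 and 40.0 CPM in sham mice and at 72.5, 116 and 74.7 in I/R mice, again with no overlap, which gave 1.07 ± 0.20 (adjusted p = 0.00361).

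Slc2a1 in myeloid cells was at 10.5, 2.71 and 4.53 CPM in sham mice and at 14.0, 40.0 and 21.4 in I/R mice. The groups did not overlap, but the 3 sham values rest on 15 UMIs in all, against 226 in I/R mice. Only 1 of the 3 sham values reached the filter level of 7.30 CPM, so the gene entered the test through the mice with ischemia, and its call is no support for a rise of the pathway. This gave a log2 fold change of 1.95 ± 0.43 (adjusted p = 0.00950). The call held with any 1 mouse left out and was lost with the voom method, which weights values by their precision (2.09, adjusted p = 0.078).

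Pgk1 and Eno1, enzymes of lower glycolysis, rose by less. Pgk1 was at 22.8, 29.8 and 31.7 CPM in sham mice and at 43.0, 62.5 and 39.1 in I/R mice (log2 fold change 0.74 ± 0.22, adjusted p = 0.0355). Eno1 was at 24.5, 24.4 and 24.1 CPM in sham mice and at 31.2, 67.4 and 47.2 in I/R mice (0.90 ± 0.27, adjusted p = 0.0329). I/R replicate 2 was the highest mouse for both, and without it the log2 fold changes were 0.55 and 0.64 (adjusted p = 0.15 and 0.14). Each sham mouse left out in turn also ended both calls, with adjusted p of 0.054 to 0.11 for Pgk1 and 0.072 to 0.085 for Eno1, as did I/R replicate 3 for Eno1 (0.071) and SBP replicate 3 for Pgk1 (0.052). Reads of Eno1 may be split with its near-identical copy Eno1b, which had 419 UMIs against 3527.

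The other 5 genes were not called for I/R against sham in myeloid cells. Slc2a4 was at 14.0, 19.9 and 24.9 CPM in sham mice and at 10.5, 3.51 and 8.90 in I/R mice (log2 fold change -1.33 ± 0.57, adjusted p = 0.13), and Aldoa at 139 to 189 and at 126 to 136 CPM (-0.28 ± 0.17, adjusted p = 0.26). Neither overlapped between groups. The cardiomyocyte markers in myeloid nuclei summed to 5973 to 6914 CPM in sham mice and to 1828 to 2847 in I/R mice, and 8 of 8 of these markers fell. B cell markers summed to 655 to 691 CPM in sham and 52.3 to 154 in I/R myeloid nuclei, and their part in these values was not tested. Of these 6 markers only 1 passed the filter there. With the estimated free RNA subtracted, Aldoa gave -0.29 (adjusted p = 0.28) and Slc2a4 no longer passed the filter. Per 1000 UMIs of Ttn, Slc2a4 had 8.73 to 16.9 UMIs in sham and 6.70 to 15.8 in I/R myeloid cells, and overlapped. Hk1, Hk2 and Ldha overlapped, at 0.35 ± 0.24, 0.17 ± 0.18 and 0.38 ± 0.24.

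**Figure D3:**
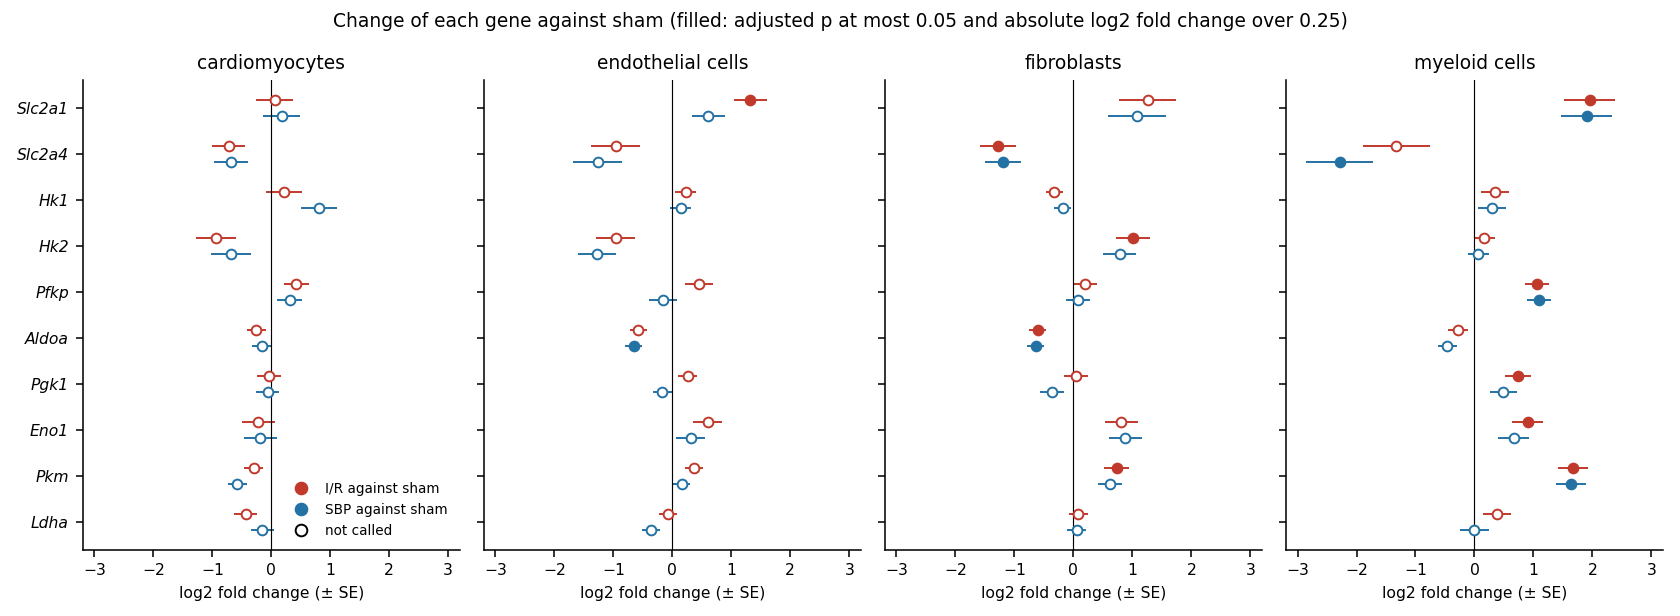
Log2 fold change against sham (x axis, ± SE) of the 10 genes (y axis) in 4 cell types, for I/R and for SBP, 3 mice per group; filled points passed the test. In myeloid cells 5 genes passed for I/R, with Pkm, at 1.68, of smallest adjusted p. Slc2a1 among them entered the test through the mice with ischemia. In cardiomyocytes 0 passed.

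The genes that rose in myeloid cells were compared between single clusters, as a description. CPM by cluster is without TMM factors, and a mouse enters with 20 or more nuclei. In I/R mice Pkm was at 122, 228 and 106 CPM in the Cd163-led cluster and at 237, 547 and 326 in the Gpnmb-led cluster of the same mice. Pfkp was at 49.5, 62.1 and 44.1 CPM in the first and at 76.7, 127 and 102 in the second. Each I/R mouse thus had more of both in its Gpnmb-led nuclei.

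Slc2a1 was at 2.54, 13.4 and 8.02 CPM in the Cd163-led cluster and at 16.3, 45.3 and 30.8 in the Gpnmb-led cluster of I/R mice. Eno1 was at 17.8, 37.8 and 31.1 in the first and at 33.4, 74.8 and 60.8 in the second. Pgk1 was at 40.6, 35.3 and 30.1 in the first and at 43.1, 69.1 and 44.2 in the second, with little difference in I/R replicate 1. Within the Cd163-led cluster alone, an alternative added after the data were seen, 0 of the 9 genes tested were called for I/R against sham, among 1.56% of 9312 genes. There Pkm gave 0.67 (adjusted p = 0.20), Pfkp 0.36, Pgk1 0.33 and Eno1 0.16, and Slc2a1 was below the filter. Sham mice had too few nuclei for a test within the Gpnmb-led cluster.

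In fibroblasts 10.7% of 13176 genes were called, and of the 10 genes Hk2 and Pkm rose while Slc2a4 and Aldoa fell. The groups did not overlap for 7 of the 10, against 26.8% of all genes. The median log2 fold change was 0.14, against -0.003 over all genes. A cluster led by Tnc, a matrix protein of wound tissue, held 0.134% to 0.251% of fibroblast nuclei in sham mice, 31.5%, 27.1% and 8.12% in I/R mice and 8.11% to 19.0% in SBP mice, and the rest lay in a cluster led by Scara5. The 14 myeloid markers summed to 231 to 337 CPM in sham and 387 to 706 in I/R fibroblasts, and their part in the values below was not tested.

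Hk2 had the opposite sign to its value in cardiomyocytes. In fibroblasts it was at 38.7, 16.8 and 31.2 CPM in sham mice, at 44.8, 77.4 and 51.1 in I/R mice and at 44.6, 51.2 and 48.0 in SBP mice. All mice with ischemia lay above all sham mice. The log2 fold change of I/R against sham was 1.01 ± 0.28 (SE; adjusted p = 0.0415), and the difference between the responses of cardiomyocytes and fibroblasts, -1.95 ± 0.49, missed the threshold (adjusted p = 0.078). In I/R mice the Tnc-led nuclei had 74.8, 181 and 199 CPM and the Scara5-led nuclei 25.9, 26.1 and 19.2. Within the Scara5-led cluster alone the log2 fold change was -0.17 (adjusted p = 0.79).

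Pkm in fibroblasts was at 92.1, 101 and 87.3 CPM in sham mice and at 158, 217 and 111 in I/R mice. The groups did not overlap, with I/R replicate 3 the nearest to sham. This gave a log2 fold change of 0.74 ± 0.21 (adjusted p = 0.0436). Tnc-led nuclei of I/R mice had 252, 371 and 259 CPM and Scara5-led nuclei 100, 145 and 78.8, and within the Scara5-led cluster alone the log2 fold change was 0.20 (adjusted p = 0.62). There 3.12% of 12407 genes were called and 0 of the 10 genes.

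Slc2a4 in fibroblasts was at 13.8, 18.9 and 19.3 CPM in sham mice and at 8.77, 5.05 and 6.07 in I/R mice, with no overlap (log2 fold change -1.28 ± 0.30, adjusted p = 0.0197). The 8 cardiomyocyte markers in fibroblasts summed to 5115 to 6247 CPM in sham mice and 1533 to 2605 in I/R mice, and 7 of 8 fell. With the estimated free RNA subtracted, Slc2a4 gave -1.05 (adjusted p = 0.11). It had 11.05, 11.57 and 15.36 UMIs per 1000 UMIs of Ttn in sham and 14.03, 12.47 and 12.85 in I/R fibroblasts, so that relative to Ttn the groups overlapped. Aldoa was at 140, 165 and 182 CPM in sham mice and at 119, 98.1 and 100 in I/R mice, with no overlap (-0.61 ± 0.15, adjusted p = 0.0224), and gave -0.61 within the Scara5-led cluster (adjusted p = 0.083).

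In fibroblasts, leaving out 1 mouse left 0 to 3 of the 4 calls. Without sham replicate 2, sham replicate 3 or I/R replicate 2, all 4 were lost, with adjusted p of 0.060 to 0.090 for Slc2a4, 0.082 to 0.15 for Hk2, 0.053 to 0.10 for Aldoa and 0.068 to 0.16 for Pkm, and the sign of each held. Hk2 was also lost without I/R replicate 3 or any SBP mouse (adjusted p = 0.054 to 0.062), and Pkm without any other mouse but I/R replicate 3 (0.053 to 0.094). Eno1 in fibroblasts, at 7.32, 8.94 and 14.8 CPM in sham mice and 15.5, 21.6 and 18.0 in I/R mice, did not overlap and missed the threshold (0.81 ± 0.28, adjusted p = 0.083).

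**Figure D4:**
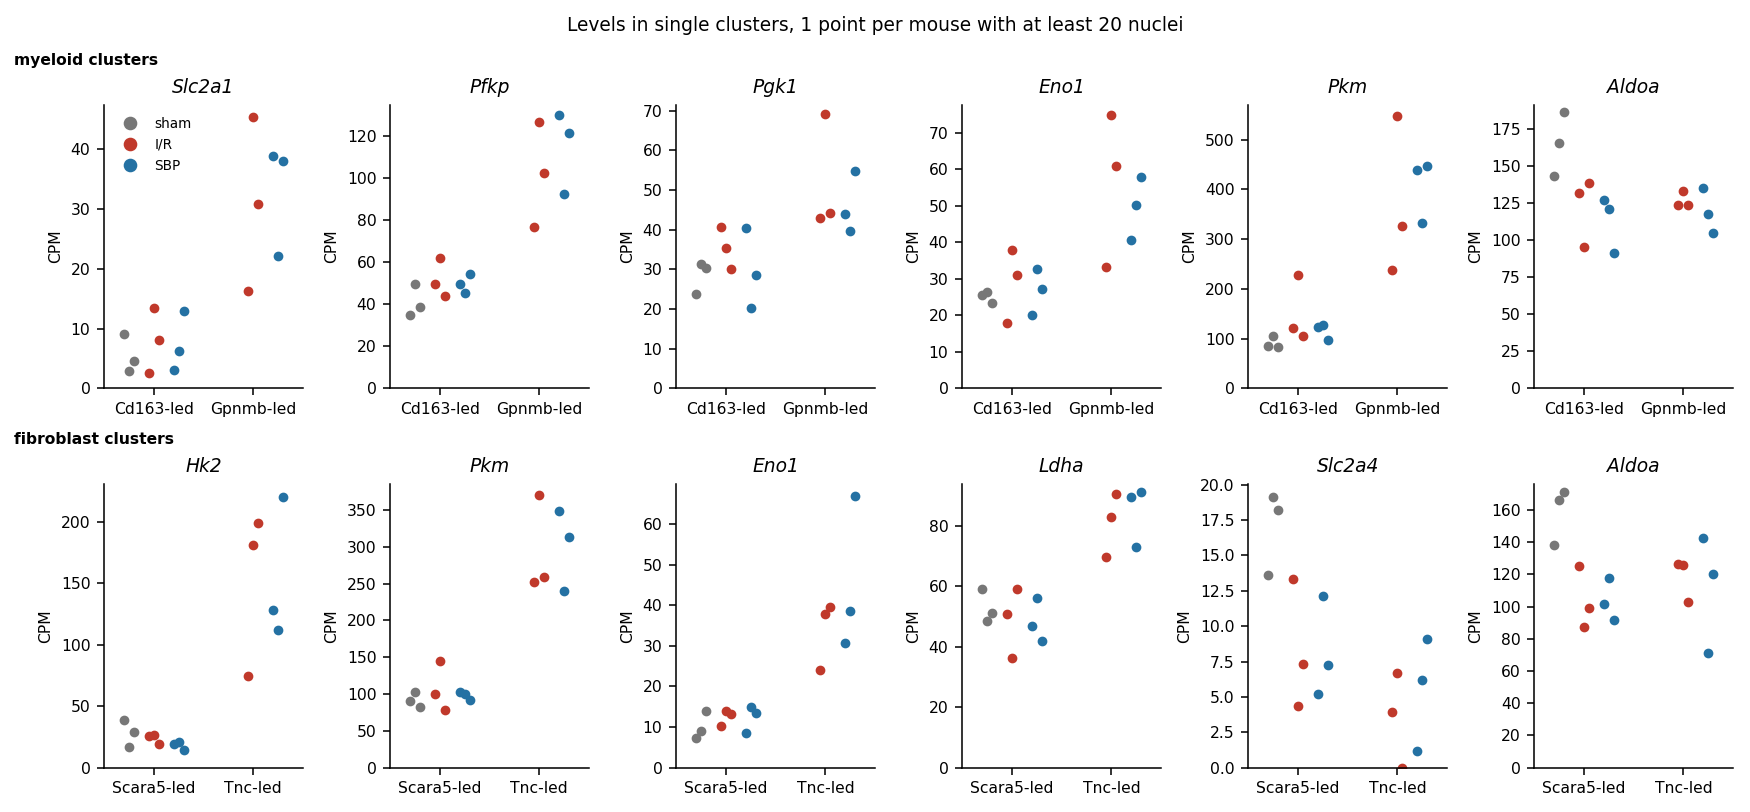
Level (CPM, y axis from 0) of genes in single clusters (x axis) of myeloid nuclei (top) and fibroblast nuclei (bottom), 1 point per mouse with at least 20 nuclei of the cluster; sham grey, I/R red, SBP blue. Pkm lay at 237 CPM or above in Gpnmb-led myeloid nuclei and at 240 or above in Tnc-led fibroblast nuclei, and at 228 or below in the Cd163-led and Scara5-led clusters.

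In endothelial cells 3.18% of 12204 genes were called, and of the 10 genes only Slc2a1 was. The groups did not overlap for 5 of the 10, against 20.6% of all genes, and the median log2 fold change was 0.24, against -0.02 over all genes. Slc2a1, the carrier that brain capillaries use to pass glucose, was at 2.22, 3.91 and 3.26 CPM in sham mice, at 9.97, 8.56 and 9.05 in I/R mice and at 4.56, 5.49 and 5.62 in SBP mice. The 3 groups did not overlap, with SBP mice between the other 2. All 3 sham values lay below the filter level of 4.10 CPM and all 6 values of mice with ischemia above it, so the gene entered the test through the groups in which it was high and had to differ. The log2 fold change of I/R against sham was 1.32 ± 0.28 (SE; adjusted p = 0.0270).

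That call rests on 24 UMIs in sham mice and 67 in I/R mice. It was lost when any sham mouse, I/R replicate 1 or I/R replicate 2 was left out, with adjusted p of 0.055 to 0.084 and log2 fold changes of 1.15 to 1.46. The call of Slc2a1 was also lost with the estimated free RNA subtracted (1.60, adjusted p = 0.11), with only the 6 samples compared (adjusted p = 0.058) and within the cluster led by Rgcc and Cd300lg, capillary genes (1.25, adjusted p = 0.12). Aldoa was at 201, 227 and 273 CPM in sham mice and at 157, 137 and 173 in I/R mice (-0.58 ± 0.14, adjusted p = 0.0506), just outside the threshold, and was called within the Rgcc-led cluster (-0.62, adjusted p = 0.0183), where 4.63% of 10379 genes were. Hk2, at 28.1 to 34.2 CPM in sham mice and 12.8 to 18.5 in I/R mice, gave -0.96 ± 0.33 (adjusted p = 0.14), and Slc2a4, at 21.8 to 26.1 and 5.56 to 19.0 CPM, gave -0.96 ± 0.42 (adjusted p = 0.26). Both overlapped relative to Ttn, with 11.95 to 17.97 UMIs of Hk2 per 1000 of Ttn in sham and 14.84 to 17.61 in I/R mice, and 8.97 to 11.98 and 6.43 to 17.68 of Slc2a4. Eno1 was higher in I/R mice, at 15.9, 26.5 and 17.7 CPM against 10.6, 12.7 and 14.7 in sham mice (0.60 ± 0.25, adjusted p = 0.22). Cardiomyocyte markers in endothelial cells summed to 7656 to 9748 CPM in sham mice and 2927 to 5232 in I/R mice, and 14 myeloid markers summed to 327 to 469 and 729 to 1101. The part of either in these values was not tested beyond the subtraction of free RNA, which gave -0.63 for Aldoa (adjusted p = 0.12) and -0.23 for Slc2a4 (0.91).

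Whether the response to I/R differed between cell types was tested on the difference between 2 types of the same mouse. Pkm was the gene whose response differed most often. Its response in myeloid cells exceeded that in cardiomyocytes by 1.98 ± 0.24 on the log2 scale (adjusted p = 0.00431), that in endothelial cells by 1.31 ± 0.23 (adjusted p = 0.0204) and that in fibroblasts by 0.94 ± 0.21 (adjusted p = 0.0264), and its response in fibroblasts exceeded that in cardiomyocytes by 1.04 ± 0.20 (adjusted p = 0.0335). Eno1 responded more in fibroblasts than in cardiomyocytes, by 1.03 ± 0.19 (adjusted p = 0.0260), and more in myeloid cells, by 1.12 ± 0.28 (adjusted p = 0.0455).

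These were 6 calls in 60 comparisons of a gene and a pair of types. The share of all genes called was 1.79% between cardiomyocytes and fibroblasts, with 2 of the 10 genes, and 4.87% between cardiomyocytes and myeloid cells, with 2. It was 3.57% between endothelial and myeloid cells, with 1 of the 10, and 7.11% between fibroblasts and myeloid cells, with 1. It was 0.0353% between cardiomyocytes and endothelial cells and 0.585% between endothelial cells and fibroblasts, with 0 of the 10 in both. The difference of Pkm between cardiomyocytes and myeloid cells kept its call with any 1 mouse left out. The other 5 did not: without sham replicate 2, sham replicate 3 or I/R replicate 2 each was lost, with adjusted p of 0.052 to 0.16.

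The third question was whether SBP changed these genes in hearts with ischemia and reperfusion. Between SBP and I/R, limma called 0% of genes in each of the 4 types, and so 0 of the 10 genes. Genes with p below 0.05 before adjustment numbered 272 for cardiomyocytes, 637 for endothelial cells, 453 for fibroblasts and 411 for myeloid cells. These were 2.12%, 5.22%, 3.44% and 3.82% of the genes tested. In cardiomyocytes 5.62% of all genes did not overlap between SBP and I/R, and of the 10 only Pkm did not, at 115, 122 and 127 CPM in SBP mice and at 146, 170 and 127 in I/R mice (log2 fold change -0.28 ± 0.16, adjusted p = 1.00, and -0.27 without I/R replicate 1, adjusted p = 1.00). I/R replicate 3 and SBP replicate 3 were next to each other, both at 127 when rounded. The study, by its own test, lists Hk1 among genes raised by SBP in cardiomyocytes. Here Hk1 was at 122, 121 and 156 CPM in SBP mice and at 73.5, 140 and 64.8 in I/R mice. The groups overlapped, and Hk1 was not called.

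In endothelial cells 9.54% of all genes did not overlap between SBP and I/R, and 3 of the 10 did not, each lower in SBP mice. Slc2a1 gave -0.71 ± 0.28, Pfkp -0.62 ± 0.24 and Pgk1 -0.43 ± 0.16, each with an adjusted p of 0.94. The 14 myeloid markers in endothelial nuclei moved the same way, at 729 to 1101 CPM in I/R and 373 to 567 in SBP mice, and their part in these values was not tested. Pfkp was at 61.6, 68.9 and 42.0 CPM in I/R mice and at 38.7, 34.3 and 36.1 in SBP mice, and Pgk1 at 46.2, 50.5 and 39.4 and at 31.9, 33.4 and 34.5. In fibroblasts 8.3% and in myeloid cells 9.14% of all genes did not overlap, and 0 of the 10 in both. In myeloid cells Pkm differed between SBP and I/R by -0.04 ± 0.25 and Pfkp by 0.03 ± 0.20.

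Against the same sham mice, SBP mice had 0 of the 10 genes called in cardiomyocytes, where 0.14% of all genes were called. There 3 of the 10 did not overlap, against 23.1% of all genes. Hk1 was at 122, 121 and 156 CPM in SBP mice and at 72.8, 53.1 and 109 in sham mice (0.81 ± 0.31, adjusted p = 0.29). Pkm was lower in SBP mice, at 115, 122 and 127 CPM against 182, 204 and 158 in sham mice (-0.58 ± 0.16, adjusted p = 0.17), and so was Slc2a4, with the values given above (-0.68 ± 0.28, adjusted p = 0.33).

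In endothelial cells, with 2.22% of all genes called, Aldoa fell, with a log2 fold change of -0.66 ± 0.14 (adjusted p = 0.0381). In fibroblasts, with 5.35% called, Aldoa fell, at -0.64 ± 0.15 (adjusted p = 0.0272), and so did Slc2a4, at -1.19 ± 0.30 (adjusted p = 0.0423). With the estimated free RNA subtracted, Aldoa in endothelial cells gave -0.76 (adjusted p = 0.090), Aldoa in fibroblasts -0.68 (0.0324) and Slc2a4 in fibroblasts -0.85 (0.27). In fibroblasts of SBP mice Slc2a4 had 6.20, 21.5 and 19.4 UMIs per 1000 of Ttn, around the sham range of 11.05 to 15.36. The 8 cardiomyocyte markers summed to 2614 to 3526 CPM in endothelial cells of SBP mice, 1624 to 2477 in their fibroblasts and 1927 to 2406 in their myeloid cells, each range below that of the sham mice given above, and their part in these falls was not tested beyond that subtraction.

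In myeloid cells, with 13% called, Pkm rose by 1.63 ± 0.25 (adjusted p = 0.00175), Pfkp by 1.09 ± 0.20 (adjusted p = 0.00405) and Slc2a1 by 1.90 ± 0.43 (adjusted p = 0.0143). For Slc2a1 only 1 of the 3 sham values reached the filter level, so its call is no support for a rise of the pathway. Slc2a4 fell, at -2.28 ± 0.57 (adjusted p = 0.0210), with 1 UMI in SBP replicate 1. Only 1 of the 3 SBP values of Slc2a4 reached the filter level, against 3 of 3 sham values, so its call is no support for a fall of the pathway. That call was lost with voom (adjusted p = 0.069), and with the estimated free RNA subtracted Slc2a4 no longer passed the filter. The SBP mice had 1.19, 18.4 and 6.00 UMIs of it per 1000 of Ttn, around the sham range of 8.73 to 16.9. Pkm and Pfkp kept the call with any 1 mouse left out. Slc2a1 lost it without sham replicate 2 or 3 or SBP replicate 3 (adjusted p = 0.056 to 0.062), and Slc2a4 without sham replicate 2 or 3 or SBP replicate 1 or 3 (0.055 to 0.082). In endothelial cells and fibroblasts each of the 3 calls was lost in 5 of the 9 fits, with adjusted p of 0.056 to 0.17: Aldoa in both types without sham replicate 2 or 3 or any SBP mouse, and Slc2a4 without any sham mouse or SBP replicate 1 or 3.

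The other genes of the pathway were read from lists of related genes. Of 39 calls for I/R against sham in these lists, 18 held with any 1 mouse left out, and for each of the others the mice without which it was lost, or the number of 9 such fits in which it held, is given with its highest adjusted p. The counts below stand beside 18.3% of all genes called in myeloid cells, 10.7% in fibroblasts, 3.18% in endothelial cells and 0.84% in cardiomyocytes. Of the other enzymes of glycolysis, 0 rose and 1 of 13 tested fell in cardiomyocytes: Pgam2, the muscle phosphoglycerate mutase, by 1.04 on the log2 scale (adjusted p = 0.0230). It was at -1.15 without I/R replicate 1 and was lost without any sham mouse or I/R replicate 2 (up to 0.095). The median of that list was -0.33, against -0.03 over all genes. In myeloid cells, with 18.3% of all genes called, 3 of 11 rose and 3 fell, with a median of 0.03 against 0.09. Pgam1, the mutase of most other tissues, rose by 2.31 ± 0.32 (adjusted p = 0.000521) and the hexokinase Hk3 by 1.21 ± 0.21 (adjusted p = 0.00211), while the muscle forms Eno3 and Pgam2 fell by 1.68 and 1.73 on the log2 scale (adjusted p = 0.000540 and 0.000847). These 2 overlapped between the groups of myeloid cells per 1000 UMIs of Ttn, with 34.9 to 48.2 UMIs of Eno3 in sham and 32.8 to 37.2 in I/R mice, and 45.9 to 67.6 and 41.5 to 51.5 of Pgam2.

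The same list had calls in both directions in endothelial cells and fibroblasts. In endothelial cells 1 of 12 rose, Pgam1, by 1.05 (held in 3 of 9 fits, up to 0.17), and 3 fell, Eno3, Pgam2 and the muscle phosphofructokinase Pfkm, with log2 fold changes of -0.98 to -2.01 (Pfkm lost without sham replicate 2, 0.057). The median was -0.20 against -0.02. In fibroblasts 2 of 13 rose, Pgam1 by 0.92 (lost without sham replicate 2 or I/R replicate 2, up to 0.090) and Hk3 by 1.64 (held in 4 of 9, up to 0.15; 0 of 3 sham values reached the filter level of 2.67 CPM), and 2 fell, Pgam2 by 1.73 and Eno3 by 1.42 on the log2 scale. The median was -0.35 against -0.003. The fall of the cardiomyocyte markers in the same nuclei is given above. Per 1000 UMIs of Ttn, Pgam2 had 62.0 to 70.8 UMIs in sham and 28.2 to 41.7 in I/R endothelial cells, and 50.4 to 64.0 and 38.1 to 54.8 in fibroblasts. Eno3 had 40.1 to 52.5 and 29.0 to 40.8 in endothelial cells, and 34.5 to 50.1 and 40.5 to 43.6 in fibroblasts, and Pfkm had 20.1 to 22.8 and 21.4 to 25.2 in endothelial cells. Of these 5 pairs of ranges, that of Pgam2 in endothelial cells had no overlap and was lower in I/R mice. Pfkm in fibroblasts, where its CPM was not called, had 18.3 to 29.2 UMIs per 1000 of Ttn in sham and 42.2 to 46.2 in I/R mice, again with no overlap but higher in I/R.

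Among other carriers of glucose, lactate and pyruvate, 0 of 9 were called in cardiomyocytes (median -0.15) and 0 of 12 in endothelial cells (-0.11). In fibroblasts 2 of 12 rose, Slc2a13, a carrier of myo-inositol, by 1.39 ± 0.21 and Slc16a3, a lactate exporter, by 2.03 ± 0.32, and 2 fell, Mpc1 and Mpc2, the subunits of the mitochondrial pyruvate carrier, by 0.78 and 0.65 on the log2 scale (median -0.60). Mpc1 was lost without sham replicate 3 or I/R replicate 2 (up to 0.062), and Mpc2 held in 1 of 9 fits (up to 0.18). In myeloid cells Slc16a3 rose by 1.54 ± 0.49 and Slc2a6 by 2.58 ± 0.66, and Slc16a7, another monocarboxylate carrier, fell by 1.18 on the log2 scale (3 of 10, against 18.3% of all genes; median -0.26). For Slc16a3 in fibroblasts and Slc2a6 in myeloid cells 0 of 3 sham values reached the filter level, and for Slc16a3 in myeloid cells 1 did, so these calls are no support for a direction of the list. Slc16a3 held there in 3 of 9 fits (up to 0.16), Slc2a6 in 5 (up to 0.065) and Slc16a7 in all but those without sham replicate 1 or 3 (up to 0.081). Adjusted p-values of these 7 calls were 0.00183 to 0.049.

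Of the genes listed with the insulin-responsive carrier and its traffic, 0 of 16 were called in cardiomyocytes (median 0.16) and in endothelial cells (0.09). In fibroblasts 1 fell, Irs1, a substrate of the insulin receptor, by 1.19 on the log2 scale (median -0.14; lost without sham replicate 2 or I/R replicate 2, up to 0.072). In myeloid cells 4 rose, Sort1, Lnpep, Tbc1d1 and Mef2d, by 0.51 to 1.53 (4 of 16, against 18.3% of all genes; median 0.21), of which Lnpep and Tbc1d1 held in 5 of 9 fits and Mef2d in 1 (up to 0.16). Of the enzymes that set the regulator of phosphofructokinase, fructose 2,6-bisphosphate, only Pfkfb4 in myeloid cells was called among 5 tested in each type (1 of 5, against 18.3%; -0.63 ± 0.18, adjusted p = 0.0259; lost without sham replicate 2 or 3 or I/R replicate 2, up to 0.093), with list medians of -0.16 in myeloid cells, 0.04 in cardiomyocytes, -0.04 in endothelial cells and 0.12 in fibroblasts.

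The glycogen genes had 0 of 13 calls in cardiomyocytes (median -0.13) and in endothelial cells (-0.32). In fibroblasts Pygm, Gbe1 and Ppp1r3c fell by 0.79 to 0.96 on the log2 scale (median -0.21). Pygm was lost without sham replicate 3 (0.064), Gbe1 without sham replicate 1 or 3 or I/R replicate 1 (up to 0.10), and Ppp1r3c held in 1 of 9 fits (up to 0.12), with 0 of 3 I/R values at the filter level. The cardiomyocyte markers in these fibroblasts summed to 5115 to 6247 CPM in sham and 1533 to 2605 in I/R mice, and their part in these values was not tested. Per 1000 UMIs of Ttn, Pygm, the glycogen phosphorylase of muscle, had 28.0 to 38.9 UMIs in sham and 42.8 to 51.2 in I/R fibroblasts, with the order of the groups turned. In myeloid cells Pygl, the glycogen phosphorylase of liver and leukocytes, rose by 2.93 ± 0.33 (1 of 12, against 18.3% of all genes; adjusted p = 0.000181, median 0.07). Of the pentose phosphate and hexosamine genes, 0 of 11 were called in cardiomyocytes (median 0.28) and endothelial cells (0.16). Pgd, an enzyme that makes NADPH, rose by 1.22 ± 0.22 in fibroblasts (median 0.26) and by 1.01 ± 0.18 in myeloid cells, where Taldo1 and Tkt rose too (1.24 and 0.71; 3 of 11, against 18.3% of all genes; median 0.54). Taldo1 was lost without sham replicate 1 or 3 or I/R replicate 1 (up to 0.072), and Tkt held in 1 of 9 fits (up to 0.16).

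Of the hypoxia factors and targets, 0 of 14 were called in cardiomyocytes (median -0.15) and 0 of 15 in endothelial cells (0.01). Hif1a, the factor itself, rose by 1.12 ± 0.19 in fibroblasts (1 of 15, adjusted p = 0.00290, median -0.10) and by 1.59 ± 0.26 in myeloid cells (adjusted p = 0.00191). In myeloid cells its mean level was 77.7 ± 11.6 CPM in sham mice and 248 ± 110 in I/R mice (SD, n = 3). Ndrg1 rose there by 1.26 ± 0.30 (2 of 12 in all, against 18.3% of all genes; median 0.31) and was lost without sham replicate 2 or I/R replicate 1 (up to 0.051).

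For SBP against sham, these lists gave 27 calls of a gene in a cell type, of which 10 held with any 1 mouse left out, and the sham mice are those of the comparison above. In cardiomyocytes 0 were called, where 0.14% of all genes were. In endothelial cells, with 2.22% of all genes called, 4 of 12 other enzymes of glycolysis fell: Eno3 with a log2 fold change of -1.74 (adjusted p = 0.00527), Pgam2 with -1.94 (0.0100; held in 8 of 9 fits, up to 0.053), Pfkm with -0.94 (0.0125; held in 5, up to 0.068) and Tpi1, triose phosphate isomerase, with -1.08 (0.0125; held in 5, up to 0.070). Of 13 glycogen genes Pygm fell, at -1.12 (adjusted p = 0.0326; held in 5, up to 0.14). In fibroblasts, with 5.35% called, Pgam2 and Eno3 fell, with log2 fold changes of -1.60 and -1.54 (2 of 13; adjusted p = 0.00442 and 0.00303), and of 13 glycogen genes Pygm fell, at -0.86 (0.0166; held in 5, up to 0.090), as did Gbe1, at -0.79 (0.0414; held in 4, up to 0.16). The cardiomyocyte markers of SBP mice are given above. Per 1000 UMIs of Ttn, Eno3, Pgam2 and Pygm overlapped between SBP and sham mice in both types, whereas Pfkm in endothelial cells was higher in SBP mice, at 26.2 to 38.3 against 20.1 to 22.8. Of 12 carriers Slc16a3 rose by 2.09 ± 0.32 (adjusted p = 0.00283), with 0 of 3 sham values at the filter level, and Slc2a13 by 1.13 ± 0.21 (0.00970; held in 7, up to 0.055). Pgd rose by 1.01 ± 0.22 (1 of 11; adjusted p = 0.0207; held in 5, up to 0.091).

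In myeloid cells of SBP mice, with 13% of all genes called, 3 of 11 other enzymes of glycolysis rose and 3 fell against sham. Those of smallest adjusted p were Pgam2, Eno3 and Pfkm, which fell, with log2 fold changes of -1.91, -1.58 and -1.44 (adjusted p = 0.000599, 0.00105 and 0.00217), and Pgam1, which rose by 1.80 ± 0.32 (0.00312). Of the other 2 rises, Hk3 held in 9 of 9 fits, and Eno2, with 0 of 3 sham values at the filter level, held in 2 (up to 0.17), so its call is no support for a direction of the list. The cardiomyocyte markers in these nuclei are given above. Per 1000 UMIs of Ttn, all 3 falls overlapped between groups. Pgam2 had 23.8 to 69.2 UMIs in SBP and 45.9 to 67.6 in sham mice. Eno3 had 36.2 to 46.5 and 34.9 to 48.2, and Pfkm had 16.7 to 26.4 and 15.6 to 25.1. Of 12 glycogen genes Pygl rose by 2.11 ± 0.33 (adjusted p = 0.00160) and Ppp1r3a, a glycogen-targeting subunit of muscle protein phosphatase, fell by 1.43 on the log2 scale (0.0109; held in 7 of 9 fits, up to 0.058). Of 12 hypoxia genes Hif1a rose by 1.21 ± 0.26 (adjusted p = 0.0117; held in 7, up to 0.054) and Ndrg1 by 0.99 ± 0.30 (0.0484; held in 2, up to 0.15), while Epas1, a second hypoxia factor, fell by 0.76 on the log2 scale (0.0469; held in 5, up to 0.16). Pgd rose by 0.77 ± 0.18 (1 of 11; adjusted p = 0.0142; held in 7, up to 0.060). Of 10 carriers Slc2a6 rose by 2.29 ± 0.66 (adjusted p = 0.0396, held in 3, up to 0.12), with 0 of 3 sham values at the filter level. Of the 16 genes listed with the insulin-responsive carrier Sort1 rose by 0.95 ± 0.26 (0.0288, held in 5, up to 0.14) and Mef2d by 0.55 ± 0.16 (0.0442, held in 3, up to 0.19). The enzymes that set fructose 2,6-bisphosphate had 0 of 5 calls in each type.

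Genes whose pattern was most like that of each member were sought over 36 values, 4 cell types in 9 mice, among 10003 genes. Points of 1 mouse share a library and points of 1 type share a cell type, so the correlations are descriptions. Among the closest to Slc2a4 were Doc2g (r = 0.95), Synpo2l and Frem2, and to Aldoa Ndufa2 (0.94), Uqcr11 and Atp5e, which belong to the respiratory chain and ATP synthase. For Pkm they were Dock5 (0.89), Plec and Sfxn5, for Hk2 Metap1d (0.88), Kmt5a and Plekhm2, for Slc2a1 Adam8 (0.87), Cebpb and Cd300lf, and for Hk1 Micall1 (0.87) and Clic5. For Eno1 they were Tmem268 (0.84), Hipk2 and Mroh1, for Pfkp Ecpas (0.83), Tmem38b and Smg5, for Pgk1 Cdk12 (0.81) and Mrpl54, and for Ldha Klhdc10 (0.78), Pgm2 and Abcc4.

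In sums over nuclei, a lower level from fewer expressing nuclei and from less RNA per nucleus cannot be told apart. The p-values of limma measure the spread between 3 mice per group, each with a single library. Genes on the other strand overlap several members: Pitrm1 (3530 UMIs) the end of Pfkp (9139 UMIs), Fam57b (1776) Aldoa (16405) and Hk1os (383) Hk1 (10002), and whether the authors' counting used the strand was not given in the sources used here.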

How the data were processed

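Nuclei were isolated from frozen heart tissue of 9 mice and run on the 10x Genomics platform. Per the submitters' processing notes, reads were processed with Cell Ranger 4.0, STAR and Seurat 3.2.0 on GRCm38. The study's methods name another Cell Ranger version, and which was used was not settled. Whether counting used the strand was not given in the sources used here. The deposited values are natural log values, made by the authors per nucleus and gene as ln(1 + 10000 × UMIs / total UMIs of the nucleus). They were turned back into UMIs, of which at least 99.999% in each sample fell within 0.1 of a whole number. Total UMIs per mouse, which set the precision, are given above.

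Nuclei were clustered with scanpy 1.11.5 and leidenalg 0.10.2 on 2000 variable genes, 30 principal components and 20 neighbours at resolution 0.5, and clusters were named where at least 3 markers of a type were each found in over 10% of nuclei. The Scrublet caller marked 78 nuclei (0.159%), which were removed. At under 0.5% the caller was taken not to have worked, and doublets may remain.

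UMIs were summed per mouse and cell type, with at least 20 nuclei. Genes were kept that reached the CPM of 10 UMIs in the median library in at least 3 samples and 15 UMIs in all. They were tested with limma 3.58.1 in R 4.3.3 (trend, robust) on log2(CPM + 1) with TMM factors, so fold changes of low genes are understated. A gene was called at an adjusted p (Benjamini-Hochberg, over all genes tested) of at most 0.05 and a log2 fold change over 0.25 in size. Every adjusted p for a comparison of groups, or of responses between cell types, is from this limma fit. Levels were compared between cell types by exact sign-flip permutation in R, adjusted over all genes of a pair and not over the 30 values of the 10 genes as first planned, since these genes had been picked by name with results known. The members and lists were chosen with earlier results of these data known. All 10 members were named. Of other lists, called genes were named, at most 4 per list and comparison by smallest adjusted p, and the 3 genes of highest correlation with each member, of which some are not reported here.

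Tested on simulated data with 200 genes changed 4-fold, limma recovered 198 to 200 with 8 to 15 unchanged genes called. The test of response differences recovered 181 to 187, and the permutation test gave p of at most 0.05 for 100% of changed genes and 4.91% to 7.18% of unchanged genes. After adjustment the permutation test recovered 0 of the 200 in each pair, since its smallest p cannot pass when few genes differ. Alternatives tried were other scalings, pseudocounts, filters, voom, a replicate block, other doublet and cell type settings, subtraction of free RNA, UMIs per nucleus, and each mouse left out. The profile of free RNA was the sum of all kept nuclei of a mouse, not empty droplets. Its share, 5.79% to 37.1% of UMIs, was the lowest that markers of another main type allowed. The profile holds RNA of the type itself, so the subtraction can also remove true signal. Fits within single clusters were added after the data were seen.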

Additional observations from a re-analysis of the deposited data

Results flagged for a closer look

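The response of Pkm and Eno1 to I/R differed between cell types by a test of the difference itself, taken on the difference between 2 cell types of the same mouse for I/R against sham, with all 9 mice in the fit (limma, adjusted over all genes of the pair). For Pkm, cardiomyocytes minus fibroblasts gave -1.04 ± 0.20 on the log2 scale (SE; adjusted p = 0.0335), cardiomyocytes minus myeloid cells -1.98 ± 0.24 (0.00431), endothelial minus myeloid cells -1.31 ± 0.23 (0.0204) and fibroblasts minus myeloid cells -0.94 ± 0.21 (0.0264). For Eno1, cardiomyocytes minus fibroblasts gave -1.03 ± 0.19 (0.0260) and cardiomyocytes minus myeloid cells -1.12 ± 0.28 (0.0455).

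With 1 mouse left out, Pkm between cardiomyocytes and myeloid cells stayed between -1.71 and -2.17 and was called in each fit. Besides the 3 mice named above, Pkm between fibroblasts and myeloid cells was lost without sham replicate 1 (adjusted p = 0.083) or I/R replicate 3 (0.075), and Pkm between cardiomyocytes and fibroblasts without sham replicate 1 (0.078), I/R replicate 1 (0.065) or SBP replicate 2 (0.054). Eno1 between cardiomyocytes and fibroblasts was lost without sham replicate 1 (0.059) or I/R replicate 3 (0.058), and between cardiomyocytes and myeloid cells without any mouse but I/R replicate 1 (0.052 to 0.16). Sham mice had too few nuclei in the Gpnmb-led and Tnc-led clusters for a test of the response within them.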

How the results depend on the processing

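Of 4879 values over 243 results, 4538 kept their side of the threshold or stayed within 1.5 times of a count. For sham mice alone, these are levels within the SD of the main difference. Called genes among them also kept their direction, whereas the direction of genes that were not called was not followed. Of the other values, 153 lost a call, 34 gained one, 143 counts or values moved and 11 reversed. The causes were not tested. Each group had 3 mice, and Slc2a1 had few UMIs.

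For I/R against sham, the genes called in cardiomyocytes were 108, and 67 with a stricter filter, 48 with voom, 210 with cell types from marker scores, 43 with free RNA subtracted and 55 with only the 6 samples compared. In endothelial cells they were 388, and 64 with free RNA subtracted and 240 with the 6 samples. Of the 10 genes, 1 was called in endothelial cells, 2 with library totals or a pseudocount of 5, and 0 with free RNA subtracted or within the Npr3-led cluster. In fibroblasts 4 were called, 1 with the 6 samples and 0 within the Scara5-led cluster, where Hk2 reversed to -0.17. In myeloid cells 5 were called, 3 with no filter, 2 with voom and 0 within the Cd163-led cluster.

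For SBP against sham, the genes called in cardiomyocytes were 18, and 11 with library totals, 0 with a pseudocount of 5 or voom, 145 with marker scores, 10 with free RNA subtracted and 386 with the 6 samples. In endothelial cells they were 271, and 147 with the replicate block, 126 with marker scores, 25 with free RNA subtracted and 550 with the 6 samples, and in fibroblasts 705, and 418 with voom. Of the 10 genes, 1 was called in endothelial cells, and 0 with the replicate block, the highest-scoring nuclei removed, marker scores, free RNA subtracted or within the Npr3-led cluster. In fibroblasts 2 were called, 1 with library totals, the stricter filter or voom, and 0 with the replicate block or within the Scara5-led cluster. In myeloid cells 4 were called, 2 with the stricter filter or voom and 0 within the Cd163-led cluster.

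Counted as UMIs per nucleus, levels in cardiomyocytes minus endothelial cells, fibroblasts and myeloid cells reversed to 0.90, 0.98 and 1.04 for Aldoa, 1.19, 1.00 and 1.01 for Pgk1 and 1.04, 0.91 and 1.10 for Ldha, and to 0.078 for Slc2a1 against myeloid cells. Of the 7 genes that differed between cardiomyocytes and fibroblasts, 4 did with marker scores. Of the response differences, 2 of the 10 genes were called between cardiomyocytes and fibroblasts and 0 with the replicate block, and 2 between cardiomyocytes and myeloid cells and 1 with a pseudocount of 0.5, library totals or the block. Between endothelial cells and fibroblasts 0 were called, and 1 with a pseudocount of 5, and between fibroblasts and myeloid cells 1, and 2 with a pseudocount of 5 and 0 with library totals.

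With 1 mouse left out, the genes called for I/R against sham ranged from 21 to 797 in cardiomyocytes, 68 to 631 in endothelial cells, 1238 to 1898 in myeloid cells and 747 to 1661 in fibroblasts. In the same order of types, they ranged from 0 to 280, 54 to 405, 555 to 1677 and 316 to 892 for SBP against sham, and from 0 to 1, 0 to 4, 0 to 10 and 0 to 0 for SBP against I/R. Of the 10 genes, 0 to 2, 0 to 3 and 3 to 5 were called for I/R against sham in endothelial cells, fibroblasts and myeloid cells, and 0 to 1, 0 to 3 and 2 to 4 for SBP against sham. Response differences ranged from 0 to 2 genes between cardiomyocytes and fibroblasts, 1 to 2 between cardiomyocytes and myeloid cells, and 0 to 1 between endothelial or fibroblast and myeloid cells.

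Mice with the same replicate number were not treated as paired, since the labels name no pairing. The correlation of their deviations from the group means lay between -0.32 and 0.29, and for replicate 3 all were positive, from 0.030 to 0.29. With 3 mice per group these values cannot show whether the numbers carry a pairing or a batch. With the number as a replicate block, 4 of the 10 genes were called for I/R against sham in myeloid cells, 3 in fibroblasts and 1 in endothelial cells.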

Other observations

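Pfkp was high in 2 small sets of nuclei that the markers used here did not name as any of the 4 main types. In T cell-like nuclei it was at 164 to 248 CPM in sham, 232 to 362 in I/R and 190 to 243 in SBP mice, and in an unnamed cluster of 354 nuclei led by Flt3 and Clec9a, with 2 mice per group, at 190 to 370, 155 to 1093 (89 UMIs) and 295 to 918. For comparison, it lay between 31.6 and 116 CPM in the 4 main types. A cluster of 185 myeloid nuclei led by S100a8 and S100a9, genes of neutrophils, had Slc2a1 at 68.4 and 93.1 CPM in the 2 I/R mice with at least 20 nuclei, on 11 UMIs in all, and Aldoa at 256 and 433 on 41 UMIs. These values are descriptions from few UMIs and were not tested.

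In Tnc-led fibroblasts Eno1 was at 24.0 to 66.9 CPM and Ldha at 69.8 to 91.2 in I/R and SBP mice, against 7.25 to 14.9 and 36.2 to 59.3 in Scara5-led fibroblasts of all groups. Slc2a4 was at 0 to 9.12 in Tnc-led and 4.36 to 13.4 in Scara5-led nuclei of the same I/R and SBP mice. It was higher in the Tnc-led nuclei of I/R replicate 2 (6.71 against 4.36) and SBP replicate 3 (9.12 against 7.28), and lower in those of the other mice.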
